A study of Homo sapiens with 6 samples.

Results

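Nuclear-coded subunit genes of the respiratory chain were examined in RNA-Sequence data of MDA-MB-231 cells. Genes were taken by symbol: the NDUFA, NDUFB, NDUFC, NDUFS and NDUFV families with NDUFAB1 for complex I, SDHA to SDHD for complex II, the UQCR family with CYC1 and CYCS for complex III and cytochrome c, COX4 to COX8 for complex IV, and the ATP5 family for complex V. Symbols that end in P and digits, which mark pseudogenes, were left out. This gave 96 of the 54259 gene symbols listed. Of these, 85 were subunit genes, and 11 were rows that no subunit is known to come from: 3 antisense RNAs, 2 read-through transcripts, 2 pseudogenes with other symbols, 2 retrocopies and the assembly-related genes ATP5S and ATP5SL.

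The respiratory chain lies in the inner mitochondrial membrane. Complexes I and II pass electrons from NADH and succinate to coenzyme Q, complex III passes them on to cytochrome c, and complex IV passes them to oxygen. Complexes I, III and IV pump protons, and complex V, the ATP synthase, uses the gradient to make ATP. All subunits of complex II and most of the others are coded in the nucleus, and the rest are coded in mitochondrial DNA. For these 13, no row was found among the gene symbols listed under names that begin with MT-, so they could not be analysed here. Some subunits have several isoforms coded by separate genes, of which one is widely expressed and another is known from heart and skeletal muscle, testis or lung.

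MDA-MB-231 cells are a triple-negative human line from breast cancer, long kept in culture. The 3 libraries of the test group came from MDA-MB-231 shBry cells, with a short hairpin RNA against the transcription factor brachyury, and the 3 control libraries from MDA-MB-231 shNC cells, with a control hairpin. The question was which genes differ when brachyury is knocked down. Total RNA was used in both groups, and no clone, passage or culture is given for a library, so that p-values measure only the spread between these samples. The hairpin used in these cells is not named in the sources used here.

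Library totals lay between 19319411 and 22985371 counts. Of 15277 genes with enough counts for a test, 4945 (32.4%) were called differentially expressed, which here means a Benjamini-Hochberg adjusted p below 0.05 over all genes tested in edgeR's quasi-likelihood test and a fold change above 1.5. Brachyury, listed as T, was at 0 counts in all 6 libraries, so the knockdown itself could not be read from these counts. The deposited description calls the RNA pericardial, while the sample labels name breast cancer cells. VIM and CD44, which are high in MDA-MB-231 cells, had at least 3028 and 482 CPM (counts scaled to the library total, TMM-normalized) in every library. ESR1, PGR and CDH1, which the line is known to lack, had at most 0.0916 CPM. Of the same list of markers, ERBB2 had 66.2 to 94.5 CPM, GATA3 9.34 to 13.9 CPM and KRT18 331 to 523 CPM. KRT8 had 837 to 921 CPM in shNC and 212 to 259 CPM in shBry and was called lower (log2 fold change -1.90). EPCAM had 0.961 to 5.01 CPM and was called higher (1.47). The identity of the cells was not tested. The heart muscle genes MYH6, MYH7, MYL7 and NPPA had 0 counts in all libraries, and TNNT2 and ACTC1 had at most 0.0945 CPM. Of the mesothelial genes, MSLN had 27.6 to 49.2 CPM and LRRN4 3.05 to 7.79 CPM, while ITLN1 had 0 counts, UPK3B at most 0.211 CPM and WT1 at most 0.32 CPM. CALB2 had 11.1 CPM in shNC replicate 3 and at most 1.37 CPM in the other libraries.

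One library stood apart for the genes examined here. The summed level of all 96 rows was 9669, 8040 and 9356 CPM in shBry replicates 1, 2 and 3, and 10179, 10595 and 10007 CPM in shNC replicates 1, 2 and 3. All shBry libraries lay below all shNC libraries. shBry replicate 2 was the lowest of its group in 75 of the 83 rows tested, against 6553 of all 15277 genes, and its median log2 deviation from the group mean was -0.16 over these rows and -0.02 over all genes. Calls that were lost or gained without this library are named with their values, and the medians are given without it.

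**Figure D1:**
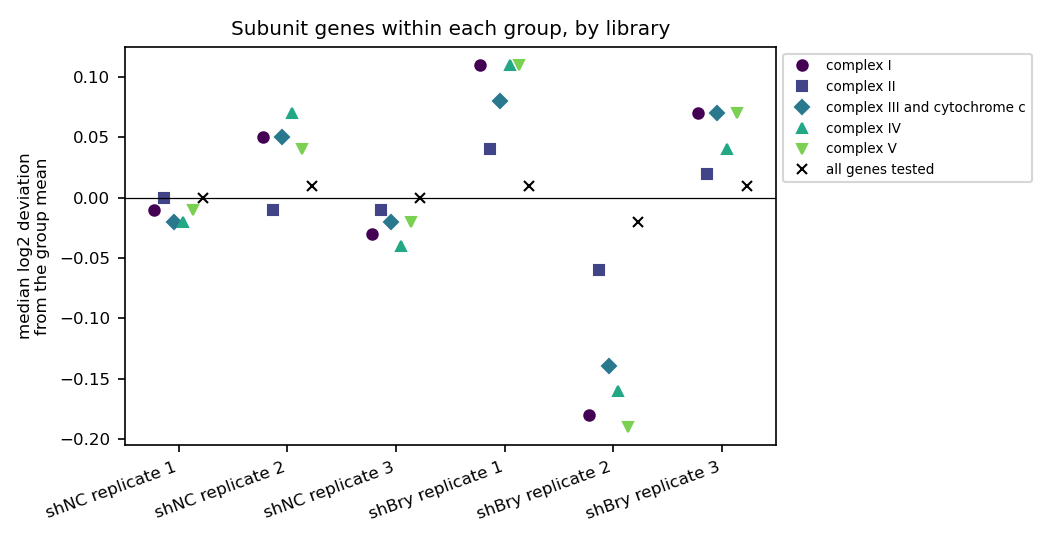
Median deviation of the tested subunit genes from the mean of their own group on the log2 scale, for each complex and each of the 6 libraries, with all 15277 tested genes as crosses. Complexes I, III, IV and V lay between -0.19 and -0.14 in shBry replicate 2, and complex II at -0.06, while all genes lay at -0.02.

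Over the respiratory chain, called genes were mostly lower in shBry. The expression filter passed 83 of the 96 rows, and 13 had too few counts in both groups. Of the 83, 16 (19.3%) were called lower and 2 (2.41%) were called higher, against 15.2% and 17.1% of all genes tested. The share called in either direction was 21.7%, below the 32.4% of all genes. All 18 were subunit genes. Without a fold change limit, 33 rows were lower and 9 were higher at an adjusted p below 0.05 in the same edgeR test, against 25.3% and 28.0% of all genes.

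The changes were small. The median log2 fold change was -0.10 over the 83 rows and 0.03 over all genes, with -0.06 over the 83 rows without shBry replicate 2 and -0.18 without shBry replicate 1, and the single values ran from -1.01 for NDUFA9 to 0.86 for CYCS. NDUFA9 was the single gene past a fold change of 2. The shBry values did not overlap the shNC values in 43 rows (51.8%), 35 lower and 8 higher, against 59.5% of all genes, 28.9% lower and 30.6% higher. In bulk samples, fewer cells of a kind and less RNA per cell cannot be told apart.

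**Figure D2:**
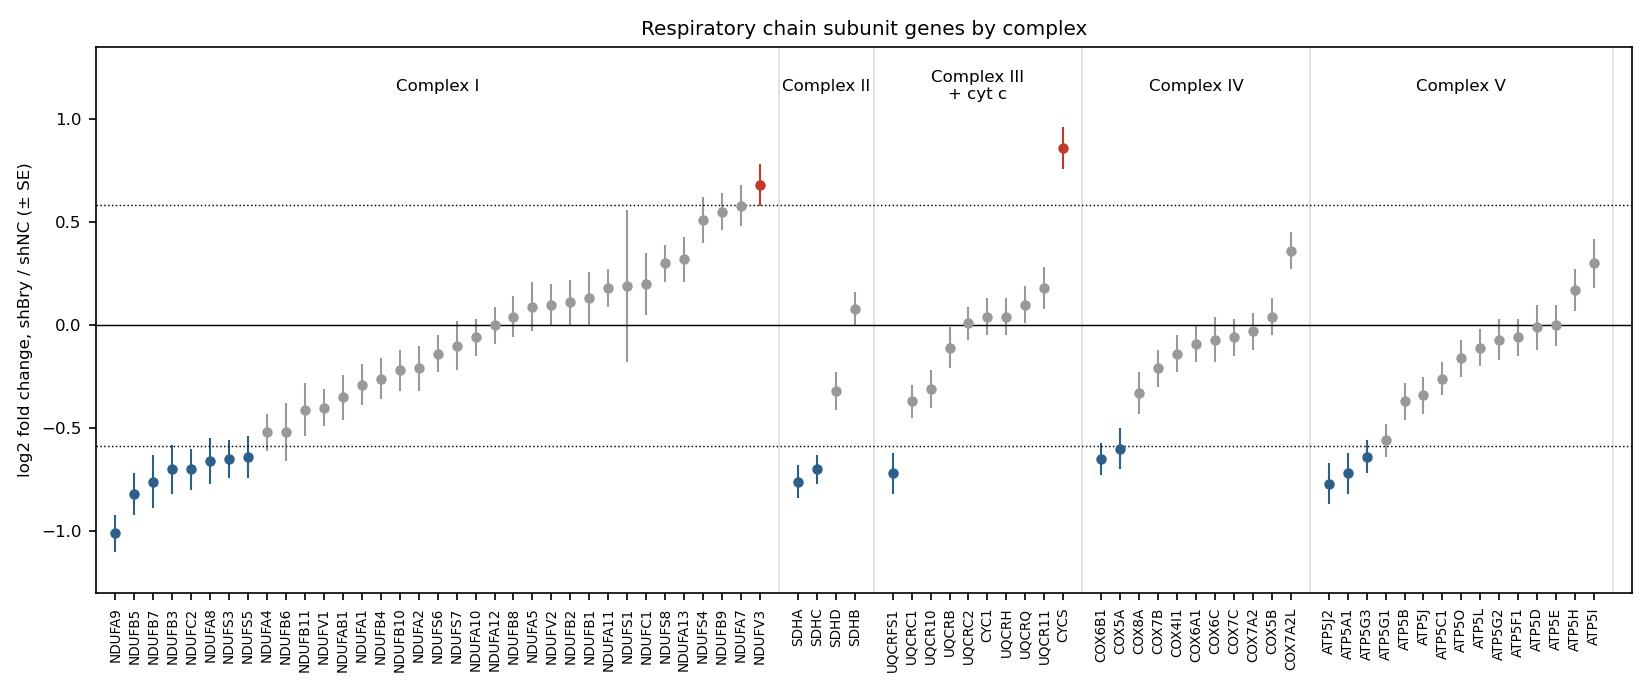
Log2 fold change of shBry over shNC for 75 of the 76 tested subunit genes, ordered within each complex, with the standard error of the edgeR fit as bars and the fold change limit of 1.5 as dotted lines. Blue points are the 16 genes called lower and red points the 2 called higher; genes on both sides of 0 occur in every complex.

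Every complex held at least 1 gene called lower, and no complex moved as a whole. The genes called lower code for 8 subunits of complex I, 2 of complex II, 1 of complex III, 2 of complex IV and 3 of complex V. These were 22.2%, 50%, 10%, 18.2% and 20% of the tested genes, against 15.2% of all genes. The 2 genes called higher code for a complex I subunit and for cytochrome c. They were 2.78% of complex I and 10% of complex III with cytochrome c, against 17.1% of all genes. The median log2 fold change was -0.12 for complex I, -0.51 for complex II, 0.03 for complex III with cytochrome c, -0.09 for complex IV and -0.16 for complex V. Without shBry replicate 2 these medians were -0.04, -0.52, 0.07, -0.02 and -0.10. Without shBry replicate 1 they were -0.21, -0.51, -0.04, -0.18 and -0.18, and without shNC replicate 3 those of complexes I and IV were -0.21 and -0.16. So, apart from that of complex II, the medians moved by much of their own size with single libraries, and that of complex III changed sign.

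Promoter sequence is shown for 4 called genes, chosen after their values were seen: NDUFA9, the largest fall, SDHA, the catalytic gene of complex II that fell, and CYCS and NDUFV3, the 2 that rose. Many respiratory chain genes are known to be controlled by nuclear respiratory factor 1 (NRF1), so its site was searched on both strands as GCGCA, any base and GCGC, and matches are in capitals. Each line gives the 250 bases before the RefSeq start on the gene's strand (GRCh38.p14), chr12:4648864-4649113 (+) for NDUFA9, chr5:218070-218319 (+) for SDHA, chr7:25125261-25125510 (-) for CYCS and chr21:42893059-42893308 (+) for NDUFV3. These RefSeq starts differ from the gene starts in GENCODE, from which the gene positions given below are taken. The NDUFV3 window lies wholly inside the GENCODE span, which begins at 42879644, so bases before that start are not shown. The NDUFA9, SDHA and CYCS windows lie partly inside their GENCODE spans.
NDUFA9: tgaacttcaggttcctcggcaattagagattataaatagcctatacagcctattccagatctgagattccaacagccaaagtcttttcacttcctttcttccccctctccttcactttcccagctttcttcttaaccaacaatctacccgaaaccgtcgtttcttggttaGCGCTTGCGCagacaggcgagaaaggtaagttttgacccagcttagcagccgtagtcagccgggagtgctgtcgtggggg
SDHA: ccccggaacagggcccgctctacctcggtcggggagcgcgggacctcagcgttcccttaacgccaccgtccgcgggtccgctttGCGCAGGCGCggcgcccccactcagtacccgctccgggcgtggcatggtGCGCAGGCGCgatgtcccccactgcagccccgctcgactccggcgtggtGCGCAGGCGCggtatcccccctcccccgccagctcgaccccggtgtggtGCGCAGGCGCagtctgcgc
CYCS: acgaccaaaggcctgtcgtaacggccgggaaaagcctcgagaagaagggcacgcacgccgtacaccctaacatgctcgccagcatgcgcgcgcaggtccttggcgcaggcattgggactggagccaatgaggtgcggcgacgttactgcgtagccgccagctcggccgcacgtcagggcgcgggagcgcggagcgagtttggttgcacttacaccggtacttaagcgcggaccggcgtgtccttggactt
NDUFV3: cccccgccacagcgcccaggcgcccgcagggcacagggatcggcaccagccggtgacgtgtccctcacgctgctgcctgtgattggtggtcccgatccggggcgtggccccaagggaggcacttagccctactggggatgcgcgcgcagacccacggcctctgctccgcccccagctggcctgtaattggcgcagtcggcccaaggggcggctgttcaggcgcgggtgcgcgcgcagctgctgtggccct

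The SDHA window held 4 copies of the site, the NDUFA9 window 1 copy, and the CYCS and NDUFV3 windows none, which says only that these letters are not there. Windows from 250 bases before to 50 bases after the start were searched in a set of 27305 promoters. The set holds 70 of the 85 subunit genes and 10 of the 16 called lower. Of the 70, 16 (22.9%) held the site, against 6.28% of all promoters in the set. It was found in 4 of these 10 genes called lower (NDUFA8, NDUFA9, SDHA and UQCRFS1) and in 10 of 51 tested genes that were not called (19.6%). The others of these 10, ATP5A1, COX5A, COX6B1, NDUFB3, NDUFB7 and NDUFS3, fell without holding the site. The ETS site CCGGAAG was found in 27.1% of the subunit promoters against 10.7% of all, and in 30% of those called lower against 31.4% of those not called. The YY1 site AAGATGG was found in 22.9% against 6.06%, and in 10% of those called lower against 25.5% of those not called. No difference between called and other genes was tested. The T-box site AGGTGTGA, the kind of sequence brachyury binds, was in none of the 70 and in 0.982% of all promoters. So rare a site would be found in few or none of 70 promoters in any case, so its absence says nothing about brachyury at these genes. These matches are a description and are not sites of measured binding.

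Complex I (NADH dehydrogenase) had 39 rows, of which 36 were tested. Its 8 falls lay in the membrane arm and the quinone module, and its 1 rise in the module that takes up electrons from NADH. Called lower were 44.4% of tested genes at the junction and in the proximal arm. The distal arm had 25% and the quinone module 20%, against 15.2% of all genes. These parts hold 5 to 12 tested genes, and the placing of the calls was not tested. NDUFA9 binds at the junction of the matrix and membrane arms and helps to hold the quinone site. It lies on chromosome 12 of GRCh38 from 4649095 to 4694317, with 10.6% of its exon bases in exons of other genes. Its level was 93.3, 99.6 and 92.6 CPM in shNC and 48, 44.6 and 49.6 CPM in shBry. The groups lay far apart, with 95.2 ± 3.83 against 47.4 ± 2.55 CPM (SD, n = 3) and a log2 fold change of -1.01 (standard error 0.09, edgeR adjusted p = 2.9e-07).

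The other called genes at the junction and in the proximal membrane arm were NDUFC2, NDUFA8 and NDUFS5, which are small supernumerary subunits. NDUFC2 had a log2 fold change of -0.70 (edgeR adjusted p = 3.7e-05) and shares 15.2% of its stretches of 50 bases with other genes, chiefly the read-through row NDUFC2-KCTD14, which was not called at -0.29. The read-through row had the higher level, with means of 78 CPM in shNC and 64 CPM in shBry against 57.3 and 35.2 CPM for NDUFC2. Since 100% of its exon bases lie in exons of other genes, the NDUFC2 call may depend on how reads were split between these rows, which was not tested. NDUFA8 and NDUFS5 had -0.66 and -0.64. Both came under the fold change limit without shBry replicate 2, at -0.57 and -0.54. In the same part of the complex NDUFA13, NDUFA11 and NDUFA10 had 0.32, 0.18 and -0.06 and were not called.

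In the distal membrane arm, 3 of 12 tested genes were called (25%), all of them lower, against 15.2% of all genes called lower. NDUFB5, a membrane-spanning subunit, had 55.3, 62.1 and 69.5 CPM in shNC and 35.1, 32.9 and 37.8 CPM in shBry, for a log2 fold change of -0.82 (standard error 0.10, edgeR adjusted p = 1.6e-05). NDUFB7 and NDUFB3 had -0.76 and -0.70, and exons of FAM126B on the other strand overlap 19.8% of those of NDUFB3. Over the 12 tested genes of this arm, 8 had values below 0 and 4 had values above 0. Among those not called, NDUFB6 had -0.52 (edgeR adjusted p = 0.0055), NDUFB11 -0.41 and NDUFAB1 -0.35. NDUFB6 was called in 2 of the 6 fits that left out 1 library. NDUFB9, with 107, 110 and 99.6 CPM in shNC, had 166, 136 and 160 CPM in shBry. The groups did not overlap, and its log2 fold change of 0.55 (standard error 0.09, edgeR adjusted p = 0.00017) lay under the limit, and was 0.61 and past it without shBry replicate 2. NDUFB8, the gene of this family with the most counts, had 150, 151 and 152 CPM in shNC and 179, 131 and 155 CPM in shBry (log2 fold change 0.04, edgeR adjusted p = 0.77), and its groups overlapped.

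In the quinone module NDUFS3, a core subunit, was lower, with 81.7, 86.8 and 76.4 CPM in shNC and 54.6, 47.8 and 53.3 CPM in shBry (log2 fold change -0.65, standard error 0.09, edgeR adjusted p = 3.4e-05). Exons of other genes, chiefly PTPMT1, overlap 22.4% of its exon bases. The core genes NDUFS8 and NDUFS7 of this module were not called, with 0.30 and -0.10. In the electron input module the flavoprotein gene NDUFV1, which had the highest mean level of the complex, had 212, 209 and 197 CPM in shNC and 172, 135 and 159 CPM in shBry. These groups did not overlap, and the log2 fold change of -0.40 (standard error 0.09, edgeR adjusted p = 0.002) was under the limit. NDUFV3, a small subunit of the same module, rose. It lies on chromosome 21 from 42879644 to 42913304 and had 33.0, 31.0 and 27.7 CPM in shNC and 52.3, 44.6 and 50.4 CPM in shBry. The lowest shBry library lay above the highest shNC library, and the log2 fold change was 0.68 (standard error 0.10, edgeR adjusted p = 8.6e-05). NDUFA7 and NDUFS4 of the same module stood just under the limit at 0.58 and 0.51, and NDUFA7 was past it without shBry replicate 2 (0.64) or shNC replicate 2 (0.60). For NDUFA7, other genes overlap 33.5% of the exon bases.

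The gene NDUFA6 was listed at 0 counts in all 6 libraries, NDUFA3 had at most 3 counts in any, and NDUFS1, a core subunit, had 13 to 28 counts. The complex IV assembly gene SURF1, with 6 to 44 counts, and the import gene TIMM22, with at most 1, were similarly near 0. These genes are known to serve respiration in many kinds of cell, so the counts may not show their true level, which was not tested.

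Complex II (succinate dehydrogenase) had the lowest median of the complexes, and its 4 genes were not lowered alike. SDHA, the flavoprotein that oxidizes succinate, had 266, 262 and 265 CPM in shNC and 166, 146 and 156 CPM in shBry. The means were 264 ± 2.09 and 156 ± 10 CPM (SD, n = 3), and SDHA fell with a log2 fold change of -0.76 (standard error 0.08, edgeR adjusted p = 2e-06). SDHA shares 8.59% of its stretches of 50 bases with other genes, among them its pseudogenes SDHAP1 and SDHAP3. SDHC, a membrane anchor with a part in binding heme and quinone, had 161, 159 and 157 CPM in shNC and 98.5, 96.8 and 98.5 CPM in shBry, and shBry replicate 2 lay close to the other shBry libraries. Its log2 fold change was -0.70 (standard error 0.07, edgeR adjusted p = 2.8e-06).

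SDHB, the iron-sulfur subunit, went with neither. It had 98.5, 103 and 98.7 CPM in shNC and 111, 97.0 and 109 CPM in shBry, so that the groups overlapped (log2 fold change 0.08, standard error 0.08, edgeR adjusted p = 0.46). SDHD, the other anchor, had 55.9, 53.1 and 61.2 CPM in shNC and 44.6, 45 and 46.7 CPM in shBry. Its groups did not overlap, and its log2 fold change of -0.32 (standard error 0.09, edgeR adjusted p = 0.0087) was under the limit. The ratio of SDHB to SDHA counts was 0.37, 0.394 and 0.373 in shNC and 0.669, 0.665 and 0.696 in shBry. This pair was 1 of 7 chosen after their values were seen, and each of the 7 had an exact permutation p of 0.1 (two-sided, also 0.1 after Benjamini-Hochberg adjustment), the smallest that 3 against 3 allows. Since the counts are not divided by transcript length, the ratio gives no ratio of transcripts. Among 4 assembly factors of complex II, 1 was called higher (25%, against 17.1% of all genes) and none lower. It was SDHAF4, with a log2 fold change of 0.65 (edgeR adjusted p = 0.015) at 3.98 to 9.21 CPM, and its call was lost in 3 of the 6 fits that left out 1 library (without shBry replicate 3, shNC replicate 1 or shNC replicate 2).

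In complex III and cytochrome c, all 10 genes were tested, and the 2 called genes went in opposite directions. CYCS codes for cytochrome c, the soluble carrier between complexes III and IV, which also takes part in apoptosis when it leaves the mitochondria. It lies on chromosome 7 from 25120091 to 25125361, and 3.76% of its stretches of 50 bases occur in other genes, its pseudogenes among them. CYCS had 78.8, 77.8 and 97.0 CPM in shNC and 163, 153 and 145 CPM in shBry. The groups did not overlap, and the means of 84.5 ± 10.8 and 154 ± 8.97 CPM (SD, n = 3) gave a log2 fold change of 0.86 (standard error 0.10, edgeR adjusted p = 4.6e-06). Over the 6 fits that left out 1 library its log2 fold change ran from 0.79 to 0.94.

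UQCRFS1 codes for the Rieske iron-sulfur protein, one of the catalytic subunits. It had 112, 120 and 108 CPM in shNC and 71.9, 57.5 and 77.1 CPM in shBry, which do not overlap, a log2 fold change of -0.72 (standard error 0.10, edgeR adjusted p = 5.3e-05). Of its stretches of 50 bases, 13.7% also occur in UQCRFS1P1. CYC1, which codes for cytochrome c1 and had the most counts of this group, had 410, 436 and 384 CPM in shNC and 470, 384 and 408 CPM in shBry (log2 fold change 0.04, edgeR adjusted p = 0.75). Its direction turned when shBry replicate 1 or shNC replicate 3 was left out, at -0.05 and -0.03. Of the core genes UQCRC1 had -0.37 (edgeR adjusted p = 0.0014), with no overlap, and UQCRC2 had 0.01. Of the 5 supernumerary genes none was called, with UQCR10 lowest at -0.31 and UQCR11 highest at 0.18. Of 6 assembly factors of complex III, 1 was called higher (16.7%, against 17.1% of all genes). This was TTC19, which is known to act on the turnover of the Rieske protein. It had 23.7, 26.9 and 26.5 CPM in shNC and 43.1, 44.7 and 49.5 CPM in shBry, for a log2 fold change of 0.83 (edgeR adjusted p = 1.2e-05).

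**Figure D3:**
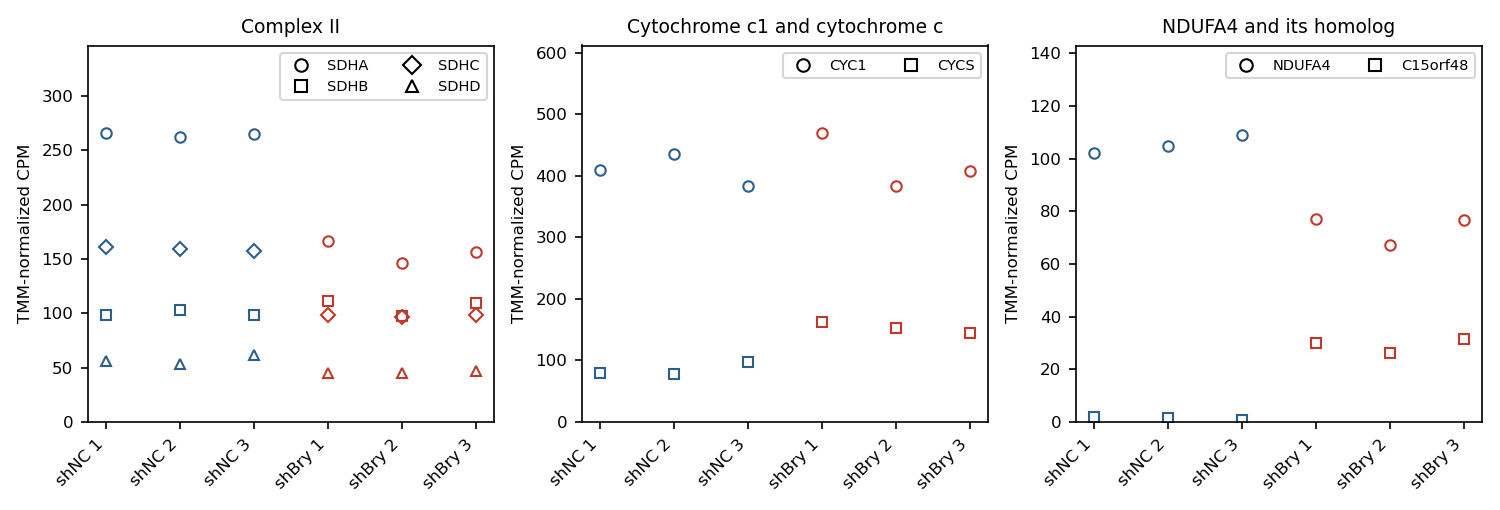
TMM-normalized CPM of the 4 complex II genes (left), of CYC1 and CYCS (middle) and of NDUFA4 and C15orf48 (right) in each library, shNC in blue and shBry in red, with axes from 0. SDHA and SDHC were lower in all 3 shBry libraries while SDHB overlapped, CYCS was higher while CYC1 overlapped, and C15orf48 was higher while NDUFA4 was lower; CPM are not divided by transcript length, so heights compare groups and not genes.

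In complex IV (cytochrome c oxidase) 11 of 17 rows were tested, and all 6 that were not are isoforms known from particular tissues. COX4I2, known from lung and raised by low oxygen, COX6A2, COX7A1, COX7B2 and COX8C were listed at 0 counts in all libraries, and in the library with the lowest total 3 counts, the limit that 0 allows for counting error alone, equal 0.161 CPM. COX6B2, known from testis, had at most 0.275 CPM. Their common partners were all expressed. COX4I1, the gene of this complex with the most counts, had 488, 497 and 471 CPM in shNC and 488, 394 and 440 CPM in shBry, and COX6A1 had 364, 401 and 349 CPM in shNC and 368, 307 and 373 CPM in shBry. The shBry and shNC values overlapped in both genes, with log2 fold changes of -0.14 and -0.09 (edgeR adjusted p = 0.19 and 0.44).

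COX6B1 was the largest fall of this complex. It codes for a subunit on the side of the intermembrane space and lies on chromosome 19 from 35648223 to 35658861, with no exon overlap. It had 142, 152 and 141 CPM in shNC and 98.3, 84.5 and 94.1 CPM in shBry, for a log2 fold change of -0.65 (standard error 0.08, edgeR adjusted p = 1.7e-05), and the groups did not overlap. COX5A, a subunit on the matrix side, had 82.5, 80.7 and 83.2 CPM in shNC and 51.5, 47.7 and 62.9 CPM in shBry. Its log2 fold change of -0.60 (edgeR adjusted p = 0.0002) just passed the limit, and was -0.57 without shBry replicate 1 and -0.53 without shBry replicate 2, under it.

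The remaining isoform partners were not called. COX7B had 95.7, 99.2 and 101 CPM in shNC and 88.1, 73.9 and 94.1 CPM in shBry (log2 fold change -0.21, edgeR adjusted p = 0.078). COX8A had 217, 228 and 197 CPM in shNC and 185, 145 and 181 CPM in shBry (-0.33, edgeR adjusted p = 0.011), and 34.5% of its exon bases lie in other genes too. COX7A2 and COX7A2L are related in sequence, and COX7A2L is known for joining complexes III and IV in a supercomplex. COX7A2 had 123, 133 and 119 CPM in shNC and 132, 110 and 125 CPM in shBry (-0.03, edgeR adjusted p = 0.78), and its groups overlapped. COX7A2L had 143, 151 and 140 CPM in shNC and 201, 167 and 191 CPM in shBry, with no overlap and a log2 fold change of 0.36 (edgeR adjusted p = 0.0025), under the limit.

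NDUFA4 bears a complex I name but is known as a subunit of complex IV. It had 102, 105 and 109 CPM in shNC and 76.9, 67.2 and 76.6 CPM in shBry. Its groups did not overlap, and its log2 fold change of -0.52 (standard error 0.09, edgeR adjusted p = 0.00014) was under the limit. Its homolog NDUFA4L2, known as a target of the low-oxygen response, had at most 0.472 CPM in any library and was not tested. C15orf48 is a further homolog, known to take the place of NDUFA4 in complex IV in inflammation, and was in the list of subunits whose symbols the selection does not match. It had 1.83, 1.61 and 0.801 CPM in shNC and 29.8, 26.1 and 31.3 CPM in shBry, for a log2 fold change of 4.34 (standard error 0.21, edgeR adjusted p = 1e-09). All 3 shBry libraries lay far above the controls. Other genes overlap 32.5% of its exon bases. The other 4 genes of that list were not called, with 0.27 for USMG5, -0.53 for C14orf2, 0.24 for HIGD1A and -0.10 for HIGD2A.

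Complex V (ATP synthase) had 15 genes, all tested, and its 3 called genes were lower. ATP5A1, the alpha subunit of the catalytic head, had 311, 304 and 309 CPM in shNC and 206, 158 and 197 CPM in shBry. Its means were 308 ± 3.48 and 187 ± 25.9 CPM (SD, n = 3), for a log2 fold change of -0.72 (standard error 0.10, edgeR adjusted p = 2.4e-05), and was at -0.62 without shBry replicate 2. ATP5B, the beta subunit and the member with the most counts of all, had 1005, 1028 and 958 CPM in shNC and 833, 684 and 799 CPM in shBry. These groups did not overlap, and the log2 fold change of -0.37 (standard error 0.09, edgeR adjusted p = 0.0024) was under the limit. The largest fall was that of ATP5J2, the membrane subunit f, with 122, 141 and 126 CPM in shNC and 81.5, 65.3 and 81.3 CPM in shBry (log2 fold change -0.77, standard error 0.10, edgeR adjusted p = 1.8e-05). The read-through row ATP5J2-PTCD1, which shares exons with it, had 0.16 and was not called.

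Subunit c forms the rotor ring, and 3 genes code for the same mature protein. ATP5G3 had 167, 177 and 172 CPM in shNC and 119, 102 and 110 CPM in shBry, for a log2 fold change of -0.64 (standard error 0.08, edgeR adjusted p = 1.6e-05). ATP5G1 had 121, 126 and 118 CPM in shNC and 86.2, 77.0 and 83.6 CPM in shBry (-0.56, edgeR adjusted p = 4.8e-05), just under the limit, and past it without shBry replicate 1 (-0.60) or shNC replicate 3 (-0.61). ATP5G2 had 173, 171 and 150 CPM in shNC and 169, 137 and 166 CPM in shBry (-0.07, edgeR adjusted p = 0.58). The groups were apart in ATP5G3 and ATP5G1 and overlapped in ATP5G2. None of the 3 central stalk genes or the 4 peripheral stalk genes was called, and their values ran from -0.34 for ATP5J to 0.17 for ATP5H.

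**Figure D4:**
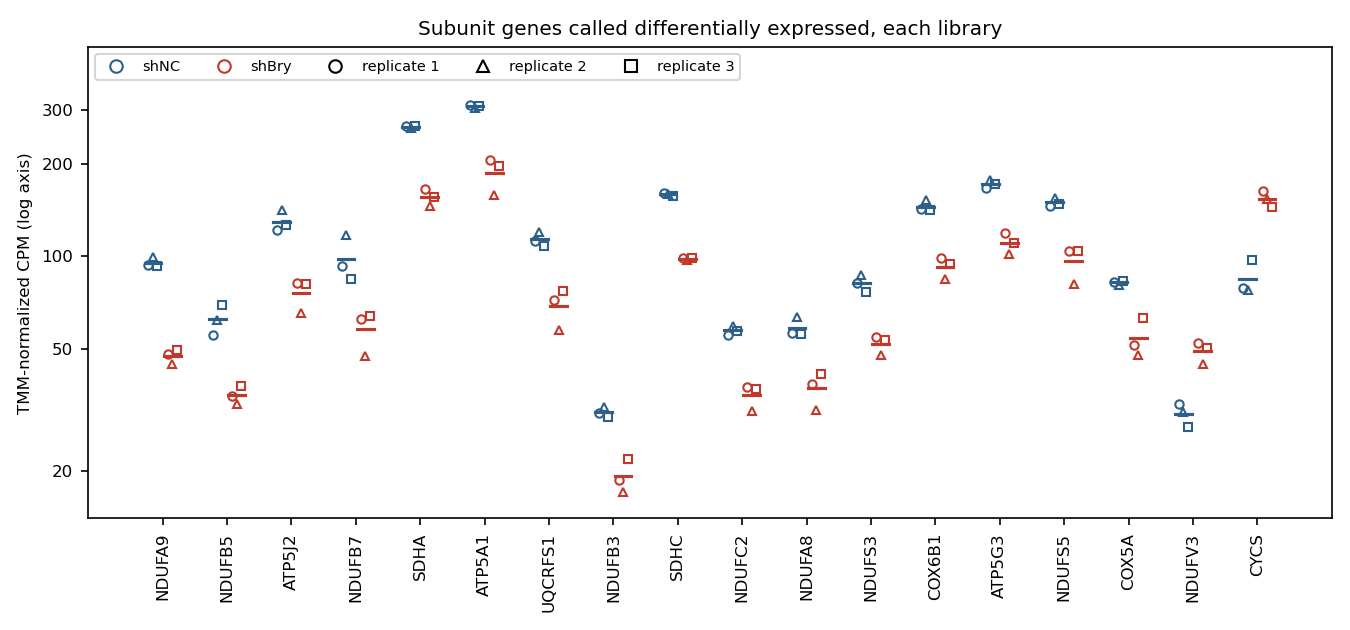
TMM-normalized CPM of the 18 called subunit genes on a log axis, ordered by log2 fold change, with 1 symbol per library and a bar at each group mean. In all 18 genes the 3 shBry libraries (red) lay apart from the 3 shNC libraries (blue), and shBry replicate 2 (triangle) was often the lowest of its group. The 18 were called on these same values, so this separation adds no support, and the groups did not overlap in 59.5% of all tested genes.

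Among the 11 rows that are no subunits, none was called and 7 were tested. ATP5S, the gene of coupling factor B, had 0.39, and ATP5SL, an assembly factor of complex I, had -0.36. The retrocopy UQCRHL and the antisense RNAs NDUFB2-AS1 and NDUFV2-AS1 had at most 1.65 CPM. The 162 pseudogene rows left out together had 169 to 240 counts per library, at most 0.115% of the counts of the 96 rows.

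Assembly factors place the subunits and insert the cofactors, and they were called in both directions. Of 17 factors of complex I, 2 were called higher and 2 lower (11.8% each, against 17.1% and 15.2% of all genes tested). ECSIT, with 58.7, 61.2 and 52.0 CPM in shNC and 33.7, 29.5 and 31.3 CPM in shBry, had a log2 fold change of -0.86 (edgeR adjusted p = 6.3e-06), and FOXRED1 had -0.74. NDUFAF4 had 0.71. C17orf89 had 0.63, and lost its call without shBry replicate 1 or shNC replicate 3 (0.41 at the lowest). Of 23 factors of complex IV, 2 were called, both higher (8.7%, against 17.1% of all genes). COX19, a copper-handling factor, had 14.2, 12.5 and 14.8 CPM in shNC and 37.8, 34.4 and 37.2 CPM in shBry, for a log2 fold change of 1.40 (standard error 0.11, edgeR adjusted p = 2e-07). LRPPRC, which stabilizes mitochondrial messenger RNAs, had 0.65, and 0.58 without shNC replicate 1, under the limit. Of 6 genes for assembly or inhibition of complex V, 1 was called lower (16.7%, against 15.2% of all genes) and none higher. It was TMEM242, at -0.63 and 2.58 to 5.54 CPM, and its call was lost without shBry replicate 1 or shNC replicate 1 (-0.48 at the weakest). These shares are below those of all genes or rest on 1 gene, so they are no result about assembly factors.

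Of 14 tested regulators of mitochondrial biogenesis, 3 were called higher and 2 lower, and the share called (35.7%) was near that of all genes (32.4%). ESRRA, a nuclear receptor that activates respiratory genes, had 65.6, 66.9 and 60.4 CPM in shNC and 127, 106 and 120 CPM in shBry, for a log2 fold change of 0.87 (standard error 0.09, edgeR adjusted p = 2.2e-06). HCFC1, a cofactor of several such activators, had 230, 210 and 200 CPM in shNC and 107, 115 and 109 CPM in shBry, for a log2 fold change of -0.95 (standard error 0.08, edgeR adjusted p = 3.5e-07). GABPB2, which codes for a subunit of the ETS factor GABP, had 0.83, and the coactivator gene PPARGC1A had -0.82 at 1.51 to 4.12 CPM, with its call lost without shBry replicate 3. The third rise was that of GABPB1 (0.59), which was lost without shBry replicate 2, shBry replicate 3 or shNC replicate 1. The gene NRF1, whose site is shown above, had 27.8, 26.7 and 27.6 CPM in shNC and 31.4, 28.7 and 34.4 CPM in shBry and was not called (log2 fold change 0.20, edgeR adjusted p = 0.13).

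Of 6 tested genes known to switch respiration at low oxygen, BNIP3 and PDK1 were lower and MXI1 was higher. The shares called were 33.3% lower and 16.7% higher, against 15.2% and 17.1% of all genes. With 6 genes these shares are no result about the list. BNIP3, a mitophagy receptor gene, had 389, 391 and 356 CPM in shNC and 89.9, 88.3 and 90.9 CPM in shBry, for a log2 fold change of -2.08 (standard error 0.08, edgeR adjusted p = 8.7e-11). PDK1, which restrains entry of pyruvate into the citric acid cycle, had -0.62, and -0.57 without shBry replicate 1, under the limit, and MXI1 had 0.72. The low-oxygen isoform genes NDUFA4L2 and COX4I2 had too few counts to be tested in either group.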

How the data were processed

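RNA of 3 MDA-MB-231 shBry and 3 shNC samples was sequenced by the authors, who deposited raw counts, whole numbers of reads per gene symbol and library without normalization. The submitters' processing notes name HISAT2 2.0.4, HTSeq and GRCh38. The annotation, strand setting and use of multi-mapped reads are not given in the sources used here, so overlapping genes and near-identical copies can share counts. Samples were grouped by their hairpin label.

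Genes were filtered with filterByExpr (minimum count 10), scaled with TMM and tested with edgeR 4.0.16 (R 4.3.3, quasi-likelihood), with Benjamini-Hochberg adjustment over 15277 genes. Calls needed a fold change over 1.5 and an adjusted p under 0.05. The standard error was the log2 fold change divided by the square root of F. The script was tested on simulated data.

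Members and lists were chosen with earlier results of these data known. Values in every library are given, in each complex, for the called genes with the largest rise and fall (mean of at least 10 CPM), the gene with the highest mean CPM, isoform groups, the SDH genes, CYC1 and CYCS. From other lists, up to 4 called genes were named. Genes outside this rule, such as those near the limit, were named after their values were seen. Of the 96 symbols, 94 matched GENCODE 29 (GRCh38), by current or older symbols. Exon overlap is the share of exon bases in exons of other genes. The alternatives were DESeq2 1.42.0 and its size factors, no TMM, limma-voom (limma 3.58.1), other filters, unadjusted p, fold change limits of 2 and none, a replicate block and each library left out. Results of 1 gene are not reported here, although the counts and medians include it.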

Additional observations from a re-analysis of the deposited data

How the results depend on the processing

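The calls depended most on the fold change limit. With a limit of 2, 2297 genes were called, among them 0 of the respiratory chain genes as higher and 1 as lower, and without a limit the numbers were 8139, 9 and 33. All 18 called genes remained called with DESeq2 and its size factors, without TMM, with limma-voom, under the other filters and with a replicate block. Of the 18, 15 remained in all 6 fits that left out 1 library. With unadjusted p no call could be lost, since it is never larger than the adjusted p. The exceptions were COX5A, NDUFA8 and NDUFS5, which came under the limit without shBry replicate 2 (COX5A also without shBry replicate 1). Without that library NDUFA7 and NDUFB9 were called higher, so that over these 6 fits the number called higher lay between 2 and 4 (3 without shNC replicate 2, with NDUFA7). The medians over these fits lay between -0.18 and -0.06 for all rows tested, -0.21 and -0.04 for complex I, -0.55 and -0.51 for complex II (beyond its spread between replicates of 0.04), -0.04 and 0.07 for complex III, -0.18 and -0.02 for complex IV and -0.23 and -0.10 for complex V. The number called lower lay between 13 and 17. Over the same fits ATP5G2 lay between -0.16 and 0.01, COX7A2 between -0.09 and 0.02, CYC1 between -0.05 and 0.08 and NDUFB8 between -0.08 and 0.13, so their direction was not fixed. Same-numbered libraries did not deviate together (correlations 0.183, -0.084 and -0.0282 for replicates 1, 2 and 3). With the replicate number as a block, 4914 genes were called, 2 respiratory chain genes higher and 16 lower, and the medians were -0.09 over all and -0.12, -0.51, 0.02, -0.09 and -0.16 for complexes I to V. With NDUFA4 and NDUFA4L2 moved to complex IV, a choice made after seeing the data, the medians of complexes I and IV were -0.10 and -0.11. At these depths a level of 0 counts allows up to 0.161 CPM, and no test was made for the 13 rows with too few counts.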

Other observations

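Called genes of pathways that feed or serve the respiratory chain are given here. Of 14 citric acid cycle enzymes, 3 were called lower and none higher, and all 3 code for isocitrate dehydrogenases. IDH2, the NADP-dependent enzyme of mitochondria, had 67.7, 67.2 and 60.8 CPM in shNC and 28.9, 24.6 and 26.7 CPM in shBry, a log2 fold change of -1.29 (edgeR adjusted p = 1.1e-07). IDH3G and IDH3B, which code for subunits of the NAD-dependent enzyme, had -0.87 and -0.82. IDH3A, the catalytic subunit gene of that enzyme, had 42.1, 43.7 and 53.2 CPM in shNC and 64, 61.2 and 61.2 CPM in shBry, a log2 fold change of 0.42 (edgeR adjusted p = 0.0028) under the limit. The groups did not overlap in any of these 4 genes, and the isocitrate dehydrogenase genes did not move alike.

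Of 23 tested genes of mitochondrial protein import, 3 were called higher and none lower. HSPA9, the chaperone that pulls proteins into the matrix, had 349, 358 and 406 CPM in shNC and 858, 786 and 914 CPM in shBry, a log2 fold change of 1.20 (edgeR adjusted p = 6.6e-08). TIMM9 and TIMM8A, small carriers of the intermembrane space, had 0.86 and 0.71, and TIMM8A was under the limit without shNC replicate 1 (0.56). Of 13 genes of coenzyme Q synthesis, PDSS2 was called, at -0.90. Of 14 genes of cristae, supercomplexes and cardiolipin, 2 were called, both lower: PGS1, which acts in cardiolipin synthesis, at -0.94 and PHB, a prohibitin gene, at -0.60 (-0.53 and under the limit without shBry replicate 2). The shares called were 21.4%, 13%, 7.69% and 14.3% for these 4 lists, against 32.4% of all genes tested. By direction, the share called higher for import (13%) was below the 17.1% of all genes, and the shares called lower for coenzyme Q (7.69%) and cardiolipin (14.3%) were below 15.2%, while that for the citric acid cycle was 21.4%. Of 7 leukocyte markers, PTPRC, TYROBP and MS4A1 were listed at 0 counts in all libraries, and LYZ, CD53 and CD3E had at most 0.137 CPM. CD14 had 1.74, 1.79 and 2 CPM in shNC and 0.645, 1.01 and 0.62 CPM in shBry and was called lower (log2 fold change -1.26, edgeR adjusted p = 0.0033).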
